A study of Mus musculus with 3 samples.

Results

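The genes of the mTOR complexes are described here through the open chromatin at and around them. Mtor, Mlst8, Deptor, Telo2, Rptor, Akt1s1, Rictor, Mapkap1, Prr5 and Prr5l were chosen by name, and all 10 were found among 21887 protein-coding genes. Every peak that touched one of these genes or the 20 kb on either side of it was taken, which gave 23 of 17189 DMSO peaks, 33 of 21321 AZD2014 peaks and 27 of 18233 rapamycin peaks. The assay was ATAC-seq, which maps open chromatin by where a transposase can cut and tag the DNA, on 50000 cultured hematopoietic stem cells (HSCs) per library. The cells were sorted from adult mice of the genotype Mx1-Cre-/-;mTORflox/flox that had received poly(I:C). All conditions therefore share floxed Mtor alleles without Cre, the poly(I:C) treatment and the StemSpan SFEM culture. The conditions were DMSO as solvent control, AZD2014 at 200 nM, which blocks the ATP site of the mTOR kinase, and rapamycin at 1 µM, which binds mTOR through FKBP proteins. The doses differ and the exposure times are unknown here, so values under the drugs are set side by side and not compared at matched exposure. Each condition had 1 library from an unstated number of animals, and no difference below has a replicate check or a p-value. A peak missing from a list shows only that the site did not pass the authors' threshold.

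mTOR is a protein kinase that matches growth, translation and metabolism to nutrients and growth factors, and in HSCs it is known for its part in the balance between quiescence and proliferation. It works in a pair of complexes. mTORC1 is defined by Raptor (Rptor) and also holds the inhibitory subunit PRAS40 (Akt1s1), and it phosphorylates S6 kinases and 4E-BP proteins. mTORC2 is defined by Rictor, holds SIN1 (Mapkap1) and either Protor protein (Prr5, Prr5l), and phosphorylates AKT and SGK kinases. Both contain mLST8 (Mlst8) and can bind the inhibitor Deptor, and TELO2 (Telo2) helps to fold and stabilise mTOR and related kinases.

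Most accessible regions at these genes were listed under all 3 conditions. All 10 windows held a peak in each list, where 66.4%, 70.1% and 67.8% of all protein-coding genes did in the DMSO, AZD2014 and rapamycin lists. A gene-end peak, meaning one no more than 1 kb from either end of the gene, was present at 8 of the 10 genes under DMSO and 9 under each drug, where 46.0%, 49.5% and 46.9% of all genes had one. In all lists it was present at 8 of the 10, and at 43.5% of all genes. Prr5 had one under each drug and not DMSO, as did 4.63% of all genes for AZD2014 and 3.05% for rapamycin. Prr5l had none in any list, like 48.5% of all genes. No gene of the set had one under DMSO and lacked it under a drug, where 1.09% of all genes lacked it under AZD2014 and 2.09% under rapamycin. None of the 23 DMSO window peaks lacked an overlapping partner under AZD2014 or under rapamycin, while 11.1% and 16.8% of all DMSO peaks did. In the other direction, 11 of 33 AZD2014 peaks (33.3%) and 5 of 27 rapamycin peaks (18.5%) had no DMSO partner, against 29.1% and 22.2% of all peaks of these lists, so both shares were near the background. With the drug lists set against each other, a partner was lacking for 7 AZD2014 peaks (21.2%) and 1 rapamycin peak (3.70%), against 25.4% and 12.6% of all peaks. By gene, Deptor, Telo2, Rptor, Akt1s1 and Prr5 had more window peaks under AZD2014 than DMSO, as did 23.6% of all genes, and Mtor had fewer, as did 6.41%. The same genes apart from Deptor had more under rapamycin (14.8% of all genes), and Mtor had fewer (11.3%). These shares are over genes of all lengths, and longer genes have larger windows. Peak calls in bulk libraries cannot tell apart fewer cells with an open site and less opening per cell.

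The additional peaks were low in their lists. Here the percentile of a peak is the share of peaks in its own list with a lower score, the score being the authors' own value per peak. The 11 AZD2014 peaks without a DMSO partner stood between percentiles 1.72 and 50.2, and the 5 rapamycin peaks between 9.61 and 28.4. Low in the lists a missing partner was common, and it was rarer from the middle up. Of all rapamycin peaks, 72.1% at percentiles 0 to 10 and 44.6% at percentiles 20 to 30 had no DMSO partner. Of all AZD2014 peaks at percentiles 20 to 30, 58.3% had no DMSO partner, and at percentiles 50 to 60 8.58%. Of the 11 AZD2014 peaks, 6 lay at an end of the named gene or inside it, at Rptor, Prr5 and Akt1s1. A further 3 lay at ends of neighbours, Clcn7 and Chmp6 among them, and 2 beyond the end of Deptor. Among the 5 rapamycin peaks, 2 were at Prr5, 2 at ends of neighbours, Clcn7 among them, and 1 upstream of Rptor. All but the peak upstream of Rptor had an AZD2014 partner.

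**Figure D1:**
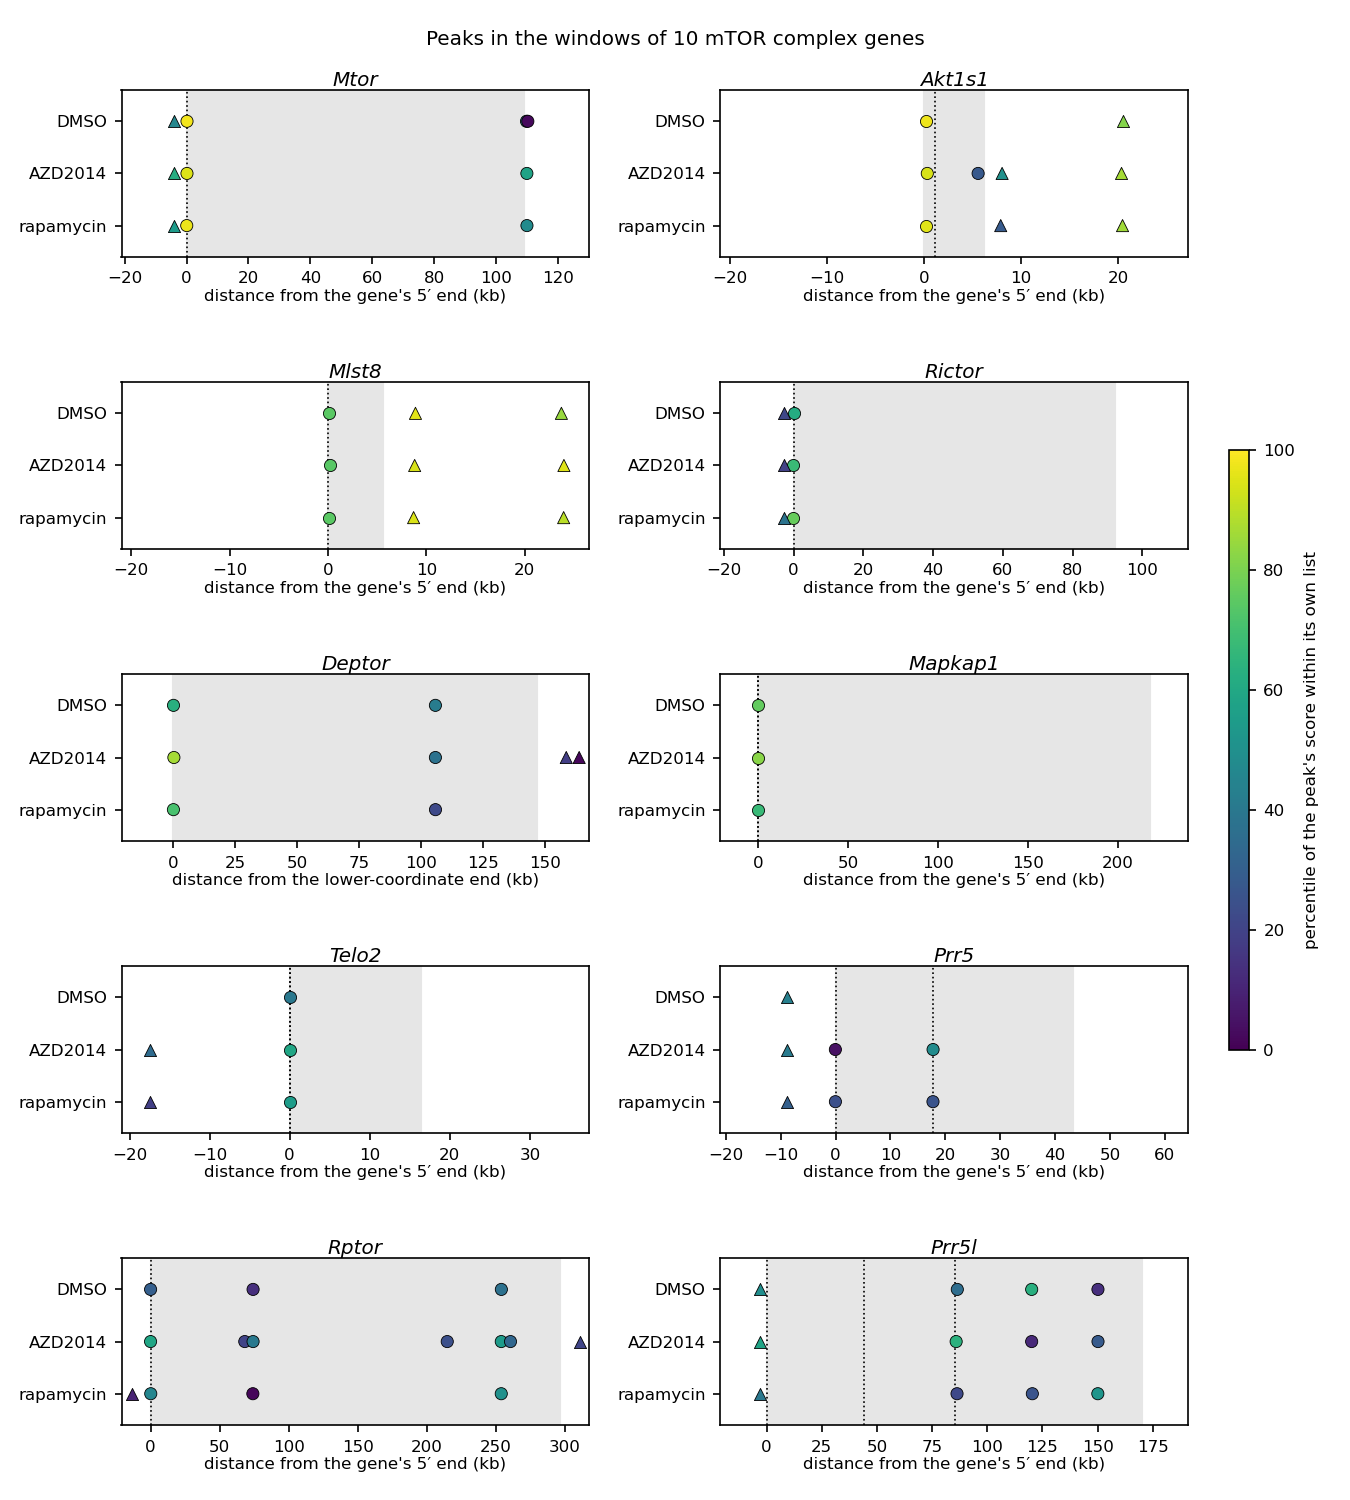
Centres of all peaks in the window of each gene, by distance in kb from the gene's 5′ end (for Deptor from its lower-coordinate end), with 1 row per library. Grey marks the gene, dotted lines annotated starts, circles peaks at the gene's own ends or inside it, triangles peaks at other genes or between genes, and colour the percentile within the list; Rptor holds 7 peaks under AZD2014 and Prr5 peaks at both starts under the drugs alone.

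The windows also hold neighbouring genes, and this matters for the small loci. Of the window peaks, 5 of 23 under DMSO, 8 of 33 under AZD2014 and 7 of 27 under rapamycin lay at an end of another protein-coding gene and not at an end of the named gene or inside it. The window edge was close for a few. The E4f1 peak was just inside the Mlst8 window, 17.8 to 17.9 kb from the gene in the 3 lists. Just outside were a peak 20.3 kb beyond Deptor under both drugs (scores 71.4 under AZD2014 and 54.0 under rapamycin) and a peak 21.2 to 21.3 kb from Mapkap1 in all lists. On the other side of Deptor a peak 21.4 to 21.6 kb away was in all lists too, at percentiles 69.8, 80.3 and 75.5.

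Mtor encodes the catalytic subunit of both complexes (chromosome 4, 148448582 to 148557685, mm10). Its start carried the peak with the highest percentile among the starts of the 10 genes in each list, at percentile 98.4 under DMSO (rank 274, score 558), 94.8 under AZD2014 (rank 1104, score 576) and 97.2 under rapamycin (rank 513, score 581). The peak was 940 bp wide under DMSO, 1255 bp under AZD2014 and 1035 bp under rapamycin, and covered the annotated start in each list. The 250 bases before that start, taken from RefSeq (GRCm38.p6) like all sequences below and written 5′ to 3′ on the gene's strand, are shown because this peak covers them in every list. Capitals mark matches to any of 8 short motifs searched on both strands: the GC box GGGCGG, the ETS site CCGGAAG, the NF-Y site CCAAT, the E-box CACGTG, the cAMP response element TGACGTCA, the AP-1 site TGANTCA, the NRF1 motif and the YY1 letters AAGATGGCG.
Mtor, chr4:148448332-148448581, plus strand: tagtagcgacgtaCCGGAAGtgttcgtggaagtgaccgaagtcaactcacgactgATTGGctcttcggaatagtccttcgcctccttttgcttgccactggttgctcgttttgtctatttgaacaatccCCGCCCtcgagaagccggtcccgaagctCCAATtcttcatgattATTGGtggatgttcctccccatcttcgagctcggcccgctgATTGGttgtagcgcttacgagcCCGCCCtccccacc
The window held 4 matches to CCAAT, 2 to GGGCGG and 1 to CCGGAAG. Of 21263 promoter windows of the same length at protein-coding genes, 35.4%, 42.6% and 8.98% held at least 1 match to these motifs. A match is a string of letters and not evidence of binding.

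No peak lay inside the Mtor gene body away from its ends. At the far end, where Exosc10 begins, DMSO had 2 adjoining peaks at percentiles 40.5 and 2.18, and each drug list had a single peak over both, at percentile 57.9 under AZD2014 and 47.9 under rapamycin. The window count of 4 under DMSO and 3 under each drug comes from this split, and every DMSO peak had a partner under each drug.

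Mlst8, the gene of the small subunit that binds the mTOR kinase domain (chromosome 17, 24473550 to 24479114), had a start peak in every list. It stood at percentile 74.5 under DMSO, 73.9 under AZD2014 and 74.5 under rapamycin, with widths of 921, 1036 and 998 bp. The other peaks of its window lay at the ends of Pgp (percentiles 95.4, 93.9 and 94.5) and E4f1 (84.4, 95.0 and 89.5). All 3 regions were found in every list.

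Deptor, which encodes an inhibitor of mTOR that is itself an mTOR substrate (chromosome 15, 55112317 to 55259273), had a peak at its lower-coordinate end in each list. It stood at percentile 63.1 under DMSO (score 171, 637 bp), 86.4 under AZD2014 (score 417, 972 bp) and 71.0 under rapamycin (score 231, 879 bp). AZD2014 was the highest and DMSO the lowest. A peak inside the gene, 105.8 kb from that end, had the opposite order between the solvent and the drugs, at percentiles 41.6, 37.9 and 22.0. Ranked over the regions found in all lists, this inner region stood at 27.9, 12.38 and 8.45. The difference from DMSO was -15.53 points under AZD2014 and -19.45 under rapamycin. Of all such regions, 19.2% and 20.2% were 10 or more points lower. AZD2014 had 2 more peaks beyond the far end of the gene, at percentiles 18.2 and 1.72, and both were gone when the lists were shortened to one length.

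Telo2 encodes a subunit of the co-chaperone complex that stabilises mTOR, ATM, ATR and related kinases (chromosome 17, 25099569 to 25115974). A single peak covered both of its annotated starts, which lie close together. Its percentile was 40.1 for DMSO, 59.2 for AZD2014 and 55.0 for rapamycin, and its width barely differed (585, 589 and 608 bp). A peak at the end of Clcn7, a lysosomal chloride transporter gene 17.1 kb away, was listed under AZD2014 (percentile 34.7) and rapamycin (18.5) and not under DMSO.

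**Figure D2:**
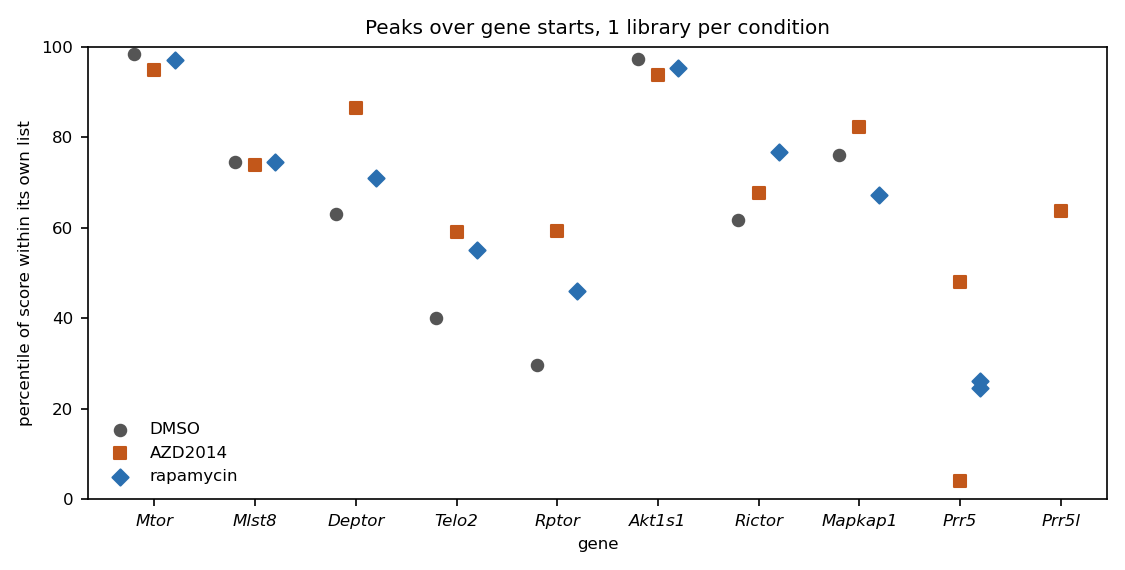
Percentile of the score within its own list for the peak over each gene's annotated start, or at its lower-coordinate end for Deptor; each point is 1 peak in 1 library, and Prr5 has a point for each of its starts. Mtor and Akt1s1 stand at percentile 93.8 or above in every list, and Prr5 and Prr5l have no DMSO point. Rptor, Telo2, Deptor and Rictor are lowest under DMSO in these percentiles, which come from lists of unequal length. Ranked over the regions found in all lists, the Rictor start is lowest under AZD2014 (51.9, 49.8 and 69.1 under DMSO, AZD2014 and rapamycin).

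Among the mTORC1 genes, Rptor encodes the scaffold that recruits substrates (chromosome 11, 119602905 to 119899591) and is the longest of the 10 at 297 kb. Its start peak had the lowest DMSO percentile of the starts with a peak, 29.7 (score 79.8, 565 bp), and stood at 59.3 under AZD2014 (score 178, 593 bp) and 46.0 under rapamycin (score 115, 738 bp). The sequence before this start is shown because it was the most AT-rich of the starts with a DMSO peak and held none of the 8 motifs.
Rptor, chr11:119602655-119602904, plus strand: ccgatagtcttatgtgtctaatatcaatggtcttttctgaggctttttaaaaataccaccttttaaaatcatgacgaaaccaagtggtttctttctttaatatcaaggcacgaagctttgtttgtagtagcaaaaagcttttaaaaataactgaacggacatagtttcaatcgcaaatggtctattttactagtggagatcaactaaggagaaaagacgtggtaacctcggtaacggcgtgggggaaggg
G and C made up 37.6% of it, against a median of 55.6% over all promoter windows and 81.2% at Rictor.

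Rptor had 3 AZD2014 peaks inside the gene that neither other list held, beside inner peaks that all lists shared. A shared peak 74 kb from the start stood at percentiles 13.5, 40.3 and 1.69 under DMSO, AZD2014 and rapamycin, and a shared peak 254 kb from the start at 37.0, 54.6 and 50.4. The AZD2014 peaks without a partner lay at 68.3 kb (chr11:119670963-119671373, score 68.0), 214.9 kb (chr11:119817509-119818021, percentile 24.5) and 260.7 kb (chr11:119863304-119863808, percentile 33.2). Whether they lie in exons or introns was not determined. A seventh AZD2014 peak belonged to the end of Chmp6 (percentile 20.3), and the fourth rapamycin peak lay 13.5 kb upstream (percentile 9.61). Of all genes, 0.260% had 4 or more additional window peaks under AZD2014. Of the 990 genes of 200 kb or more, 2.83% did, and 5.86% of these had 3 or more additional peaks in the gene body. With the lists shortened to one length, Rptor had 3, 7 and 3 window peaks in the DMSO, AZD2014 and rapamycin lists. The lowest AZD2014 score kept there was 67.1, close to the 68.0 of the peak at 68.3 kb. In the upper 50% of each list Rptor had 0, 2 and 1, and none of the AZD2014 peaks without a partner was among them.

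Akt1s1, the gene of the mTORC1 inhibitor PRAS40 (chromosome 7, 44849224 to 44855421), shares its start region with the end of Tbc1d17. One wide peak covered both, at percentile 97.4 under DMSO (2022 bp), 93.8 under AZD2014 (2423 bp) and 95.4 under rapamycin (2494 bp). Near the far end of the gene, AZD2014 alone had a peak (percentile 27.5). The Ptov1 peak was in all lists, at percentiles 81.3, 86.7 and 85.7.

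Among the mTORC2 genes, Rictor encodes the scaffold of the complex (chromosome 15, 6708349 to 6800401), and its start peak stood at percentile 61.7 under DMSO (796 bp), 67.8 under AZD2014 (1175 bp) and 76.8 under rapamycin (1041 bp). A small peak 2.8 kb upstream was in every list, at percentiles 21.2, 19.2 and 38.2, and its AZD2014 peak dropped out when the lists were shortened to one length. Both Rictor peaks were highest under rapamycin. Mapkap1, which encodes SIN1, the subunit that presents substrates to mTORC2 (chromosome 2, 34406771 to 34624958), had the start peak as its only window peak in each list. It stood at percentile 76.0 under DMSO (562 bp), 82.4 under AZD2014 (650 bp) and 67.3 under rapamycin (753 bp), so rapamycin was the lowest here.

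Prr5 encodes a Protor protein that binds Rictor (chromosome 15, 84663206 to 84706409). It has 2 annotated starts 17.8 kb apart, and neither had a peak under DMSO. Both had one under each drug. At the first start the peak was at percentile 4.06 under AZD2014 (chr15:84662907-84663450, score 52.6) and 24.5 under rapamycin (chr15:84662993-84663374, score 71.8). At the second it was at percentile 48.1 under AZD2014 (chr15:84680654-84681295, score 128) and 26.1 under rapamycin (chr15:84680739-84681172, score 74.2). These peaks covered at least 263 of the 300 bases around each start. The 250 bases before both starts are shown because they are the starts marked under the drugs and not under DMSO.
Prr5 start 1, chr15:84662956-84663205, plus strand: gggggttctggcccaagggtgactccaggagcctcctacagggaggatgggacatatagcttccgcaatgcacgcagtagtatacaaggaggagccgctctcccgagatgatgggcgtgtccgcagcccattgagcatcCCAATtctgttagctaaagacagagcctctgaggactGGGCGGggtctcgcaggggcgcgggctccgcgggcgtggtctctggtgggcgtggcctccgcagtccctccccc
Prr5 start 2, chr15:84680748-84680997, plus strand: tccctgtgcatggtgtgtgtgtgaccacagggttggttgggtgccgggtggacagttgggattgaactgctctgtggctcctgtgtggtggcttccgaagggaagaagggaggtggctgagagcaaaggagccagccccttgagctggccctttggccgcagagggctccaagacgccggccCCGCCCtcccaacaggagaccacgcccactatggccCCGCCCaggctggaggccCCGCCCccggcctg
The first held 1 match to GGGCGG and 1 to CCAAT, and the second 3 matches to GGGCGG. Both were rich in G and C, at 64.0% and 66.8%.

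A gene-end peak under both drugs and not DMSO was present at 2.20% of all protein-coding genes, and 489 of 21263 annotated starts had a peak with this arrangement. Of the 14 annotated starts of 9 genes (Deptor has none in the table used), 9 were covered under DMSO, 12 under AZD2014 and 11 under rapamycin, with 9 covered in all lists. Over all annotated starts these shares were 44.0%, 47.5%, 45.4% and 41.9%. None of the 14 was covered under DMSO and not AZD2014, where 0.894% of all starts were. This look at starts was added after the data were seen. Among 2761 genes with 2 or more annotated starts, 1.20% had a peak under both drugs and not DMSO at 2 or more of them, and closely spaced starts count among these. With the lists shortened to one length the first Prr5 start had no AZD2014 peak, and in the upper 50% of each list Prr5 had no peak in any. A region 8.8 kb upstream of Prr5 was in all lists, at percentiles 43.0, 41.3 and 30.2. It held the only DMSO peak of the window. The part of depth in the missing DMSO start peaks was not tested. Ranked over the regions found in all lists, this upstream region stood at 29.56, 15.25 and 13.86. The difference from DMSO was -14.31 points under AZD2014 and -15.7 under rapamycin. Of all such regions, 19.2% and 20.2% were 10 or more points lower.

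**Figure D3:**
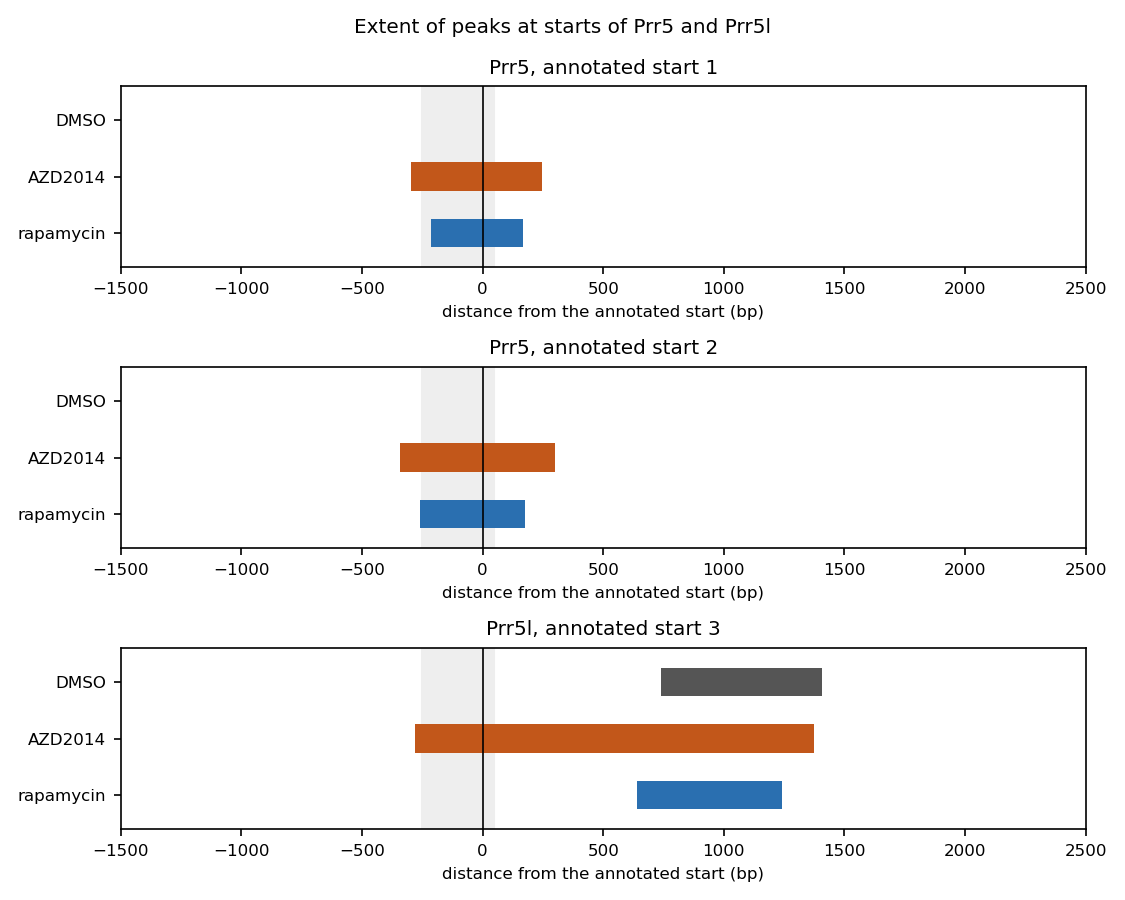
Extent of peaks around the 2 annotated starts of Prr5 and the third annotated start of Prr5l, in bp from the start along the direction of transcription; bars are peaks, 1 row per library, and grey marks the 300 bases around the start. At Prr5 the AZD2014 and rapamycin bars cross each start and DMSO has none, and at Prr5l the AZD2014 bar of 1653 bp alone reaches the start.

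Prr5l encodes the second Protor protein (chromosome 2, 101713110 to 101883052) and was the gene whose inner regions differed most in rank. Of its 3 annotated starts, the first and second had no peak in any list. In all, 50.7% of annotated starts had none. The third start was covered by an AZD2014 peak alone, as were 2.13% of annotated starts. That peak was 1653 bp wide (chr2:101796334-101797986, percentile 63.8), while the DMSO peak of 668 bp (percentile 35.4) and the rapamycin peak of 604 bp (percentile 21.9) lay further into the gene and did not reach the start. The sequences before the first start, which had no peak, and the third are shown for comparison.
Prr5l start 1, chr2:101883028-101883277, minus strand: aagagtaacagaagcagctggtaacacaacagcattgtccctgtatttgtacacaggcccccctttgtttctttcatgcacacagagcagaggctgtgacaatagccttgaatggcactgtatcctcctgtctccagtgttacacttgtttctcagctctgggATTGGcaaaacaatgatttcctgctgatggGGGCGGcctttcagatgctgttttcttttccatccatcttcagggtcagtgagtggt
Prr5l start 3, chr2:101797708-101797957, minus strand: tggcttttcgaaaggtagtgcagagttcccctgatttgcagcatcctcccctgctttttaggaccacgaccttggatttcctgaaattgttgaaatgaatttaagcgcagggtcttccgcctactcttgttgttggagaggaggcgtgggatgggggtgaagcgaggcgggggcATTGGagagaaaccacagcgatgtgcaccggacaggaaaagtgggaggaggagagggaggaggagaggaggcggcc
The first start had 1 CG dinucleotide in these 250 bases and the third 10, which is also the median of all promoter windows. Both held 1 match to CCAAT, and the first 1 to GGGCGG.

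The other inner regions of Prr5l differed in their order. A region 120 kb from the 5′ end held a DMSO peak of 1081 bp at percentile 63.3 (chr2:101762400-101763480, score 171), an AZD2014 peak of 731 bp at percentile 11.4 (score 58.7) and a rapamycin peak of 787 bp at percentile 25.8 (score 73.8). DMSO was the highest and widest, and the AZD2014 peak dropped out when the lists were shortened to one length. A region 150 kb from the 5′ end stood at percentiles 13.7, 28.4 and 52.0 under DMSO, AZD2014 and rapamycin, with widths of 466, 521 and 775 bp. Rapamycin was the highest and widest there. The last peak of the window, at the end of Commd9, stood at 48.9, 58.2 and 40.1. Ranked over the regions found in all lists, it stood at 36.32, 35.35 and 22.74. The difference from DMSO was -0.97 points under AZD2014 and -13.58 under rapamycin.

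Ranks from lists of different lengths cannot be compared directly, so regions were also ranked over one set that every list holds. Merging overlapping peaks gave 24981 regions, of which 13670 had a peak in all 3 lists and 22 of these lay in the windows of the 10 genes. A region's common percentile is the share of the 13670 regions with a lower score in the same library. Under AZD2014, 5 of the 22 regions stood 10 or more points above DMSO and 3 as far below, where 19.1% and 19.2% of all common regions did. Under rapamycin the numbers were 6 and 6, against 20.3% and 20.2%. The median difference over the 22 was 1.96 points under AZD2014 and 1.47 under rapamycin, beside -0.07 and -0.05 over all common regions. These counts lie near the background. Both comparisons use the same DMSO library.

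At the genes' own ends, 9 regions were common to all lists, with Mtor counted at both of its ends. Of these, Deptor, Rptor and Telo2 stood 10 or more points higher under AZD2014 and none as far lower. Deptor stood at 53.7 under DMSO, 78.8 under AZD2014 and 61.4 under rapamycin. Rptor stood at 16.4, 37.0 and 29.4, and 6.23% of all common regions stood 20 or more points higher under AZD2014. Telo2 stood at 26.3, 36.7 and 40.4. Rptor and Telo2 were past 10 points under both drugs, Rictor under rapamycin (51.9, 49.8 and 69.1 under DMSO, AZD2014 and rapamycin), and Mapkap1 stood lower than DMSO under rapamycin by a difference of -13.4 points (69.9, 72.6 and 56.5). Mtor, Mlst8 and Akt1s1 stayed within 10 points of DMSO under both drugs.

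The regions inside Prr5l were at the extremes. The region at 120 kb stood at 53.9 for DMSO, 1.61 for AZD2014 and 10.7 for rapamycin, and 0.307% and 0.373% of common regions stood 40 or more points lower. The region at 150 kb stood at 5.68, 6.94 and 36.6. It was the 1 region of the 22 at 20 or more points above DMSO under rapamycin, where 7.12% of common regions were, and 1.91% were at 30 or more. Under AZD2014 none of the 22 reached 30 points, and 1.71% of common regions did. The region beside the third start stood at 21.6, 43.6 and 8.33, with AZD2014 above and rapamycin below DMSO, an arrangement past 10 points on both sides that 1.46% of common regions had. The cut-offs of 30 and 40 points here, those of 250 and 900 bp for widths below, and the counts over long genes above were set after the values were seen.

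**Figure D4:**
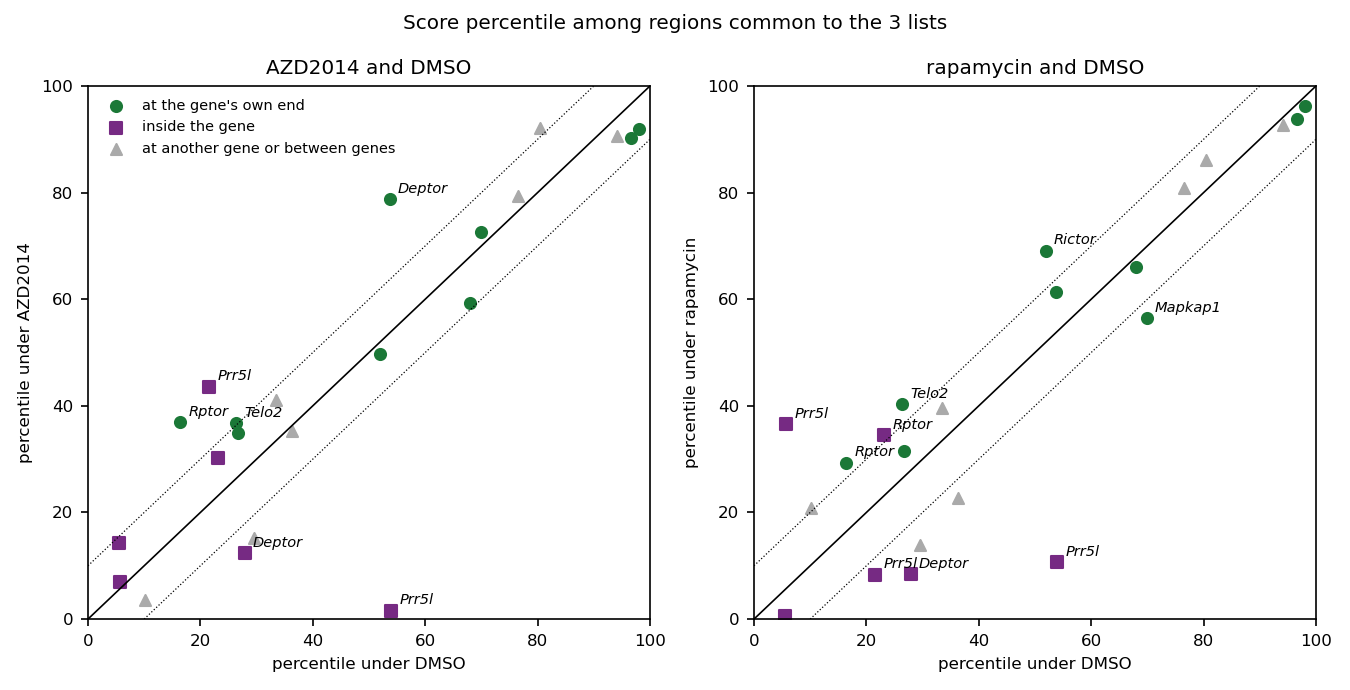
Common percentile of the 22 regions near the 10 genes under each drug (vertical axis) and under DMSO (horizontal axis), each point being 1 region in 1 library per axis; the solid line marks equality and dotted lines 10 points. Deptor and Rptor ends lie above the lines under AZD2014, Rictor above and Mapkap1 below them under rapamycin, and a Prr5l region far below under both.

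Peaks near these genes were wider under the drugs, as peaks were in general. In the 9 own-end regions, AZD2014 peaks were wider than DMSO peaks in 9 and rapamycin peaks in 8, and over all common regions 84.9% and 76.5% were wider. The exception under rapamycin was the region just beyond the far end of Mtor, where Exosc10 begins, at -71 bp. The median difference over the 9 regions was 115 bp under AZD2014 and 173 bp under rapamycin, against 161 bp and 116 bp over all common regions. The Prr5l region at the third start was 985 bp wider under AZD2014, and 0.827% of common regions were at least 900 bp wider. The Prr5l region at 120 kb was narrower than under DMSO, by a width difference of -350 bp under AZD2014 and -294 bp under rapamycin, where 0.914% and 1.87% of common regions were narrower by 250 bp or more.

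The same 8 motifs were counted before all annotated starts of these genes. The promoter table matched 9 of the 10 genes, all but Deptor, with 14 windows, of which those of Telo2 and of Mapkap1 overlap each other. GGGCGG was in 8 of the 14 windows (42.6% of all promoter windows), CCAAT in 7 (35.4%) and CCGGAAG in 3 (8.98%). None held CACGTG, letters that Myc and TFEB can bind, or TGACGTCA, the cAMP response element, and these were in 6.63% and 1.92% of all promoter windows. None held TGANTCA, the NRF1 motif or AAGATGGCG either, which 6.13%, 1.07% and 0.720% of all windows did. In 1 place, at Rictor, matches of different motifs overlapped. No match says only that these letters are not in this window.

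Gene-end peaks were also counted at genes that work with the complexes. Of 60 genes in 7 lists, 48 had a gene-end peak under DMSO, 51 under AZD2014 and 48 under rapamycin, with 47 in all lists and 9 in none. Over all protein-coding genes the shares were 46.0%, 49.5% and 46.9%, with 43.5% in all lists and 48.5% in none. All 5 other listed members of the mTOR kinase family, which TELO2 stabilises (Atm, Atr, Prkdc, Smg1 and Trrap), had one in every list. So did 7 of 9 assembly partners, the exceptions being Ruvbl2 and Pih1d1 with none, and 9 of 11 lysosomal activators of mTORC1, all but Rragb and Rragd. Among the FKBP genes, which include the rapamycin receptor, all 7 were marked under DMSO and AZD2014 and 6 under rapamycin. Fkbp1b was the one not listed there, and its peak was at percentile 34.3 under DMSO and 17.6 under AZD2014. Of 6 upstream brakes, 5 were marked under DMSO and 6 under each drug, Tsc2 being added at percentiles 56.7 and 52.4. Of 12 mTORC1 substrates, 9, 10 and 9 were marked, Grb10 being added under AZD2014 (percentile 31.3). Of 10 mTORC2 substrates, 6, 7 and 6 were marked. Sgk3, a kinase gene of the AKT and SGK family, was added under AZD2014 at percentile 0.0891, the very bottom of the list.

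The label of the cells was checked against marker genes, with gene-end peaks as the readout. Of 12 HSC and progenitor markers, Kit, Mecom, Hlf, Meis1, Runx1 and Flt3 had one in every list, Cd34 under AZD2014 alone, and Ly6a, Procr, Slamf1 and Gata2 were among those with none. Of 23 markers of other blood cells, 7, 9 and 11 had one in the DMSO, AZD2014 and rapamycin lists, and 12 had none in any. Over all protein-coding genes these shares were 46.0%, 49.5% and 46.9%, with 48.5% in none and 43.5% in all lists. The 6 of 12 HSC and progenitor markers with one in every list, and the 11 of 23 other markers under rapamycin, lie near those shares. The 7 of 23 other markers under DMSO and 9 under AZD2014 lie below them, as do the 7 other markers in all lists. Those in all lists included Ebf1, Cd3d, Epor, Klf1, Pf4 and Itga2b. Cd79a and Gzmb were added under both drugs, and Mpo and Cpa3 under rapamycin. The part of these markers in the differences above was not tested. Depth is unknown, since the lists hold no read numbers. The AZD2014 list was the longest and the DMSO list the shortest, as were their covered lengths of 16.8 and 11.7 Mb (14.3 Mb under rapamycin). The part of list length in the additional peaks was not tested beyond the shortened lists.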

How the data were processed

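Per the labels' protocols, 50000 cells per library went through tagmentation at 37 °C for 30 min before sequencing on a HiSeq 2500. The submitters' processing notes name CASAVA and the build mm10. Peaks were deposited by the authors as a list for each library, with a score per peak. Peak names carry the word MACS, per the file contents. Caller settings, aligner, duplicate handling and read shift were not given in the sources used here. The deposited score has a lowest value of 50.0 and was used to rank peaks within a list. Starts were converted to count from 1.

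Gene positions, and promoter sequences from 250 bases before to 50 after annotated starts, came from RefSeq on GRCm38 patch 6, the assembly of mm10. Groups came from sample titles. Peaks counted as partners when they overlapped by at least 1 bp. The genes named are the 10 members, neighbours with a window peak at their end, and members of the 7 pathway lists and the marker lists whose gene-end status differed or was singled out. Members and lists were chosen with earlier results of these data known. No test was run, because each condition had 1 library. Alternatives were gene ends of 500 and 2500 bp, the gene body alone, 50 kb windows, the upper 50% of each list, lists of one length, 50% reciprocal overlap, partners within 500 bp, a 20-point difference and summed scores. Code was tested on copies of the DMSO list in which peaks had been removed or added, or scores raised. Python 3.11.15, numpy 2.4.6, pandas 2.3.3 and matplotlib 3.10.9 were used.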

Additional observations from a re-analysis of the deposited data

Results flagged for a closer look

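At the Prr5l region 86.2 kb from the gene's 5′ end, beside the third annotated start, the drugs differed from DMSO in opposite directions. The common percentile was 22.0 points above DMSO under AZD2014 and below DMSO under rapamycin, at -13.23 points, so that rapamycin minus AZD2014 was -35.27 points. Each value comes from 1 library, the drugs were used at different doses, both share the DMSO library, and the difference was not tested.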

How the results depend on the processing

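No paired analysis was possible because each condition had 1 library. The numbers of genes with a gene-end peak (8, 9 and 9 under DMSO, AZD2014 and rapamycin) stayed within 1.5 times under every alternative run for them, though the gene-end peak of Prr5 under AZD2014 was lost at one list length. Window peaks (23, 33 and 27) were 14, 20 and 16 with the gene body alone and 10, 17 and 13 in the upper 50% of each list. With 50 kb windows they were 39, 49 and 43. Peaks without a partner moved as follows, each named as list and then the list lacking the partner. With the gene body alone they were 6 for AZD2014 and DMSO, 2 for rapamycin and DMSO, 4 for AZD2014 and rapamycin and 0 for rapamycin and AZD2014. With 50 kb windows they were 2 for DMSO and AZD2014, 8 for rapamycin and DMSO, 3 for DMSO and rapamycin and 3 for rapamycin and AZD2014. The 0 DMSO peaks without an AZD2014 partner became 1 in the upper 50%, 2 at one list length and 3 with reciprocal overlap. Those without a rapamycin partner became 1 in each of these settings. The 1 rapamycin peak without an AZD2014 partner became 4 at one list length and 2 with reciprocal overlap. With a difference of 20 points, regions ranked higher were 3 and lower 1 under AZD2014, and 1 and 1 under rapamycin. With the gene body alone, Deptor and Telo2 no longer had more peaks under AZD2014 than DMSO. Under rapamycin only Prr5 still had more. In the upper 50%, the Mtor window held 2 more peaks under AZD2014 and 1 more under rapamycin than DMSO, the reverse of the full lists, because of its DMSO peaks only the one at the Mtor start is in that part of the list. With 1 library per condition and unknown depth, a peak absent from a list shows only that it missed the authors' threshold.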
